A study of Mus musculus with 30 samples.

Results

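The stefin A genes of the mouse form a row of closely related cystatin genes on chromosome 16. The 8 genes described here are Csta2, Cstdc4, Stfa1, Cstdc6, Cstdc5, Stfa3, Stfa2 and Stfa2l1, out of 30142 genes that the arrays named singly. They were taken up because Csta2, Stfa1 and Cstdc6 varied strongly among twin blastocysts, and the other 5 because they belong to the same family. Each gene stood on exactly 1 transcript cluster, the unit in which the array sums its probes. The cluster of Cstdc5 carries the symbol Stfa3 in the platform's annotation but the gene ID of Cstdc5, and was taken for Cstdc5.

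Transcripts were measured in 30 single blastocysts of B6C3F1 x CD1 matings, each on its own array. The twins came from 10 embryos that had a short culture in KSOM(aa) and were bisected at the 2-cell stage. From each of them, 1 blastomere grew alone in GM501 (10 GM501 twins) and its sister grew alone in SAGE 1-Step (10 SAGE twins). Both are media made for assisted human reproduction. The 10 controls were embryos kept whole and cultured one by one in KSOM(aa), a medium for mouse embryos that contains amino acids. Mothers of all groups had been stimulated with PMSG and hCG, and zygotes were collected from the oviducts. Lysis was at 4 days post coitum, after 96 h of culture. By then a twin had about 40 to 50 cells, and a control about 80. Medium, bisection and cell number differ together between twins and controls, so these cannot be told apart, and neither can fewer cells of a type and less RNA per cell.

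Stefins are small cystatins that stay inside the cell and block cysteine cathepsins, the papain-like proteases of the lysosome, by sitting in their active site. Humans have a single stefin A gene, CSTA, whereas the mouse has a cluster of copies. Stefin A is best known from neutrophils and from the epidermis, where it is built into the cornified envelope of keratinocytes. In the genome build GRCm38.p6 the genes lie in the order Stfa2l1 (chr16:36156811-36161948), Cstdc4 (chr16:36184212-36188111), Csta2 (chr16:36221562-36257447), Stfa1 (chr16:36277148-36285371), Cstdc6 (chr16:36321665-36334332), Cstdc5 (chr16:36359382-36367570), Stfa2 (chr16:36403946-36408363) and Stfa3 (chr16:36450537-36455392). All are annotated as protein-coding. No cluster that named one of them named another gene, and no other cluster of the array held the same row of values, although 1633 of its 65956 clusters share a row with another. Probe sequences were not used here, so probes shared between these related copies were not tested, and each signal is uncertain as to the copy it came from.

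Promoters are shown for Csta2 and Cstdc4, which varied together from blastocyst to blastocyst, and for Stfa1 and Cstdc5, 2 members that varied apart from them. RefSeq (GRCm38.p6) gave the stretch from 250 bases before to 50 bases after the annotated start for 7 of the 8 genes, all but Cstdc6. Capitals mark the 2 longest stretches that the promoters other than that of Csta2 all share, ACCTTTAAAACCC and GATCATTTCTTCT (13 bases each), and CCAAT, which stands here as ATTGG because it lies on the other strand. The first 2 are Csta2 (chr16:36221312-36221611, plus strand) and Cstdc4 (chr16:36183962-36184261, plus strand). Stfa1 (chr16:36276898-36277197, plus strand) and Cstdc5 (chr16:36367521-36367820, minus strand) follow.
Csta2: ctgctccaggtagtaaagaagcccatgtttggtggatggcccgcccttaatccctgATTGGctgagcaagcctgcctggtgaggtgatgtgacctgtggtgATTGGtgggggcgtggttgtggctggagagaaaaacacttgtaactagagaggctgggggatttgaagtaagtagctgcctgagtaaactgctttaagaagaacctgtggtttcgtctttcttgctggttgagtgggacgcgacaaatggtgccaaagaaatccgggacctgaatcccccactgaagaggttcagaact
Cstdc4: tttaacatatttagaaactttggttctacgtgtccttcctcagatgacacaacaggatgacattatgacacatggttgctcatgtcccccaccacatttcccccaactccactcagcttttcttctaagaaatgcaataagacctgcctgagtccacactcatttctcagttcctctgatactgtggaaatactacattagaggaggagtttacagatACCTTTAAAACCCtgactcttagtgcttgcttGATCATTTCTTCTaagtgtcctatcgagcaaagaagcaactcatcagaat
Stfa1: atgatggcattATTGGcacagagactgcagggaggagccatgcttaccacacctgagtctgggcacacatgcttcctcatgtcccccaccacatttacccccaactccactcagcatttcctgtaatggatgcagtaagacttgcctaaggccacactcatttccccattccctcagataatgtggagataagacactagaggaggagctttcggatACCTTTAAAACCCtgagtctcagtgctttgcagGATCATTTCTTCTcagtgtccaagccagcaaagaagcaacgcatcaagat
Cstdc5: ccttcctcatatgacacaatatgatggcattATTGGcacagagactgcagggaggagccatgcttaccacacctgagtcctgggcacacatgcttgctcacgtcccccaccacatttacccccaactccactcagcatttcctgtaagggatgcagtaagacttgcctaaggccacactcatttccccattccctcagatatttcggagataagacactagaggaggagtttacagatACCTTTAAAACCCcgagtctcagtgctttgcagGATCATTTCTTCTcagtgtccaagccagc

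Csta2 stood apart by sequence. In global alignments its promoter was identical to those of the other 6 genes at 46.5 to 50.7% of positions, whereas the others were identical to each other at 67.8 to 90.5%. ACCTTTAAAACCC, which holds the TATA-like run TTTAAAA, was in 9 of all 32851 mouse promoters in the table on either strand (0.0274%). All 9 lie in this stretch of chromosome 16: those of Cstdc4, Stfa1, Cstdc5, Stfa2, Stfa3 and Stfa2l1, and of Csta3, Cstdc3 and Gm7260 beside them. Counted from the annotated start as base 0, it began at -32 in Cstdc4 and Stfa2, -33 in Stfa1, -34 in Stfa3, -36 in Stfa2l1 and -12 in Cstdc5. GATCATTTCTTCT was in the same 9 promoters and in that of 1700010I02Rik on chromosome 3 (0.0304%), and began at base 0 in Cstdc4, Stfa1 and Stfa2. TTTAAAA by itself was in 8.74% of all promoters on either strand. CCAAT was in 6 of the 7 promoters, all but that of Cstdc4, and in 37.4% of all promoters, and Csta2 held it at 2 places. G and C made up 51.7% of the Csta2 promoter, 41.0% of that of Cstdc4, 48.7% of that of Stfa1 and 49.3% of that of Cstdc5. These matches describe the letters in this window and locate no bound factor.

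Values below are log2 RMA signals, on which a difference of 1 is a factor of 2, and they compare 1 gene across blastocysts, not genes with each other. Array medians over all clusters were higher in the twins of pairs 1 to 6 (5.01 ± 0.15, SD, 12 arrays) than in those of pairs 7 to 10 (4.69 ± 0.18, SD, 8 arrays), and 4.64 ± 0.03 in controls (SD, n = 10). The median itself lay above the highest control in 12 of 12 arrays of pairs 1 to 6 and in 1 of 8 of pairs 7 to 10. This split between the sets of pairs was known from earlier results of these data. Differences, spreads, co-twin distances and correlations of the cluster genes are therefore also given within each set of pairs. The part of the array medians in them was not tested beyond that and the fit with every array centred on its median. Markers of the blastocyst were present in all groups: the trophectoderm keratin Krt8 averaged 15.89 in GM501 twins and 15.67 in SAGE twins, against 16.78 in controls.

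Csta2, cystatin A family member 2, had the widest range of the 8 genes. Its lowest, median and highest signals were 6.57, 9.84 and 12.27 in GM501 twins and 5.86, 9.68 and 11.91 in SAGE twins, against 5.27, 7.23 and 9.48 in controls. The groups overlapped, but 5 of 10 GM501 twins and 5 of 10 SAGE twins lay above the highest control. In GM501 the signals of pairs 1 to 6 were 10.46, 8.54, 12.27, 10.88, 11.58 and 11.46, and those of pairs 7 to 10 were 6.57, 9.04, 9.21 and 7.51. In SAGE they were 10.85, 11.46, 11.42, 9.19, 11.91 and 10.17 in pairs 1 to 6, and 7.94, 8.54, 7.49 and 5.86 in pairs 7 to 10. All 10 twins above the controls came from pairs 1 to 6. The means were 9.75 ± 1.88 in GM501 twins and 9.48 ± 2.01 in SAGE twins, against 7.36 ± 1.08 in controls (SD, n = 10 each).

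Cstdc4, a gene with a cystatin domain upstream of Csta2, followed Csta2 from blastocyst to blastocyst. Its lowest, median and highest signals were 4.69, 6.59 and 8.21 in GM501 twins and 4.44, 6.84 and 7.95 in SAGE twins, against 4.62, 5.03 and 6.36 in controls. Of the twins of pairs 1 to 6, 11 of 12 lay above the highest control, and of pairs 7 to 10, 0 of 8. The exception was the GM501 twin of pair 2, at 5.79, whose SAGE sister was at 7.95. The same twin was the lowest of its set for Csta2, at 8.54 against 11.46 in its SAGE sister. Means were 6.50 ± 1.13 in GM501 twins and 6.50 ± 1.24 in SAGE twins, against 5.10 ± 0.50 in controls (SD, n = 10 each).

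Stfa1, stefin A1, had lowest, median and highest signals of 6.56, 9.07 and 11.50 in GM501 twins and 7.43, 9.57 and 11.79 in SAGE twins, against 6.59, 7.76 and 9.11 in controls. In GM501, pairs 1 to 6 gave 9.35, 11.50, 8.79, 9.83, 10.17 and 10.85, and pairs 7 to 10 gave 7.95, 6.56, 7.35 and 8.33. In SAGE, pairs 1 to 6 gave 10.50, 11.79, 9.78, 11.04, 9.37 and 9.92, and pairs 7 to 10 gave 8.39, 7.90, 7.43 and 7.58. Pairs 1 to 6 held 11 of 12 twins above the highest control, and pairs 7 to 10 held 0 of 8. The highest 2 signals were the co-twins of pair 2, whose GM501 twin was low for Csta2 and Cstdc4. The GM501 twin of pair 3 was the highest of all for Csta2 and the lowest of its set for Stfa1.

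Cstdc6, another gene with a cystatin domain, was at 6.46, 8.64 and 10.63 (lowest, median and highest) in GM501 twins and 6.85, 9.28 and 11.02 in SAGE twins, against 6.11, 7.82 and 8.56 in controls. As for Stfa1, 11 of 12 twins of pairs 1 to 6 and 0 of 8 of pairs 7 to 10 lay above the highest control. The GM501 twin of pair 1, at 8.56, equalled the highest control to 2 decimals. Its mean was 8.67 ± 1.37 in GM501 twins and 9.04 ± 1.64 in SAGE twins, against 7.61 ± 0.81 in controls (SD, n = 10 each).

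Cstdc5, also a gene with a cystatin domain, separated the 2 sets of pairs without overlap, as did Stfa1 and Cstdc6. The sets differ in array median. How many of all genes separate them, or exceed the highest control as these genes did, was not counted. Signals of Cstdc5 were 5.24, 6.76 and 7.38 (lowest, median and highest) in GM501 twins and 5.63, 6.81 and 7.66 in SAGE twins, against 5.57, 5.88 and 6.25 in controls. Every twin of pairs 1 to 6 lay between 6.75 and 7.66, above all 10 controls, and the 8 twins of pairs 7 to 10 lay between 5.24 and 6.26. Only the SAGE twin of pair 8, whose array median was also the highest of its set at 5.12, exceeded the highest control among those 8.

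Stfa3, stefin A3, passed the filter on low means with 5.216 over all arrays, where the lowest mean kept was 4.803. Signals were 4.74, 5.40 and 5.89 (lowest, median and highest) in GM501 twins and 4.71, 5.46 and 5.93 in SAGE twins, against 4.54, 4.89 and 5.37 in controls. Stfa2, stefin A2, and Stfa2l1, a copy named after it, did not pass it, with means of 4.37 and 4.766. Stfa2 averaged 4.50 ± 0.46 in GM501 twins and 4.45 ± 0.39 in SAGE twins, against 4.16 ± 0.22 in controls (SD, n = 10 each). For Stfa2l1 the means were 4.82 ± 0.38 in GM501 twins and 4.86 ± 0.37 in SAGE twins, against 4.62 ± 0.49 in controls (SD, n = 10 each). No twin exceeded the highest control for Stfa2l1: KSOM(aa) control 7 gave 5.95, and the other 9 controls lay between 4.22 and 4.79.

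**Figure D1:**
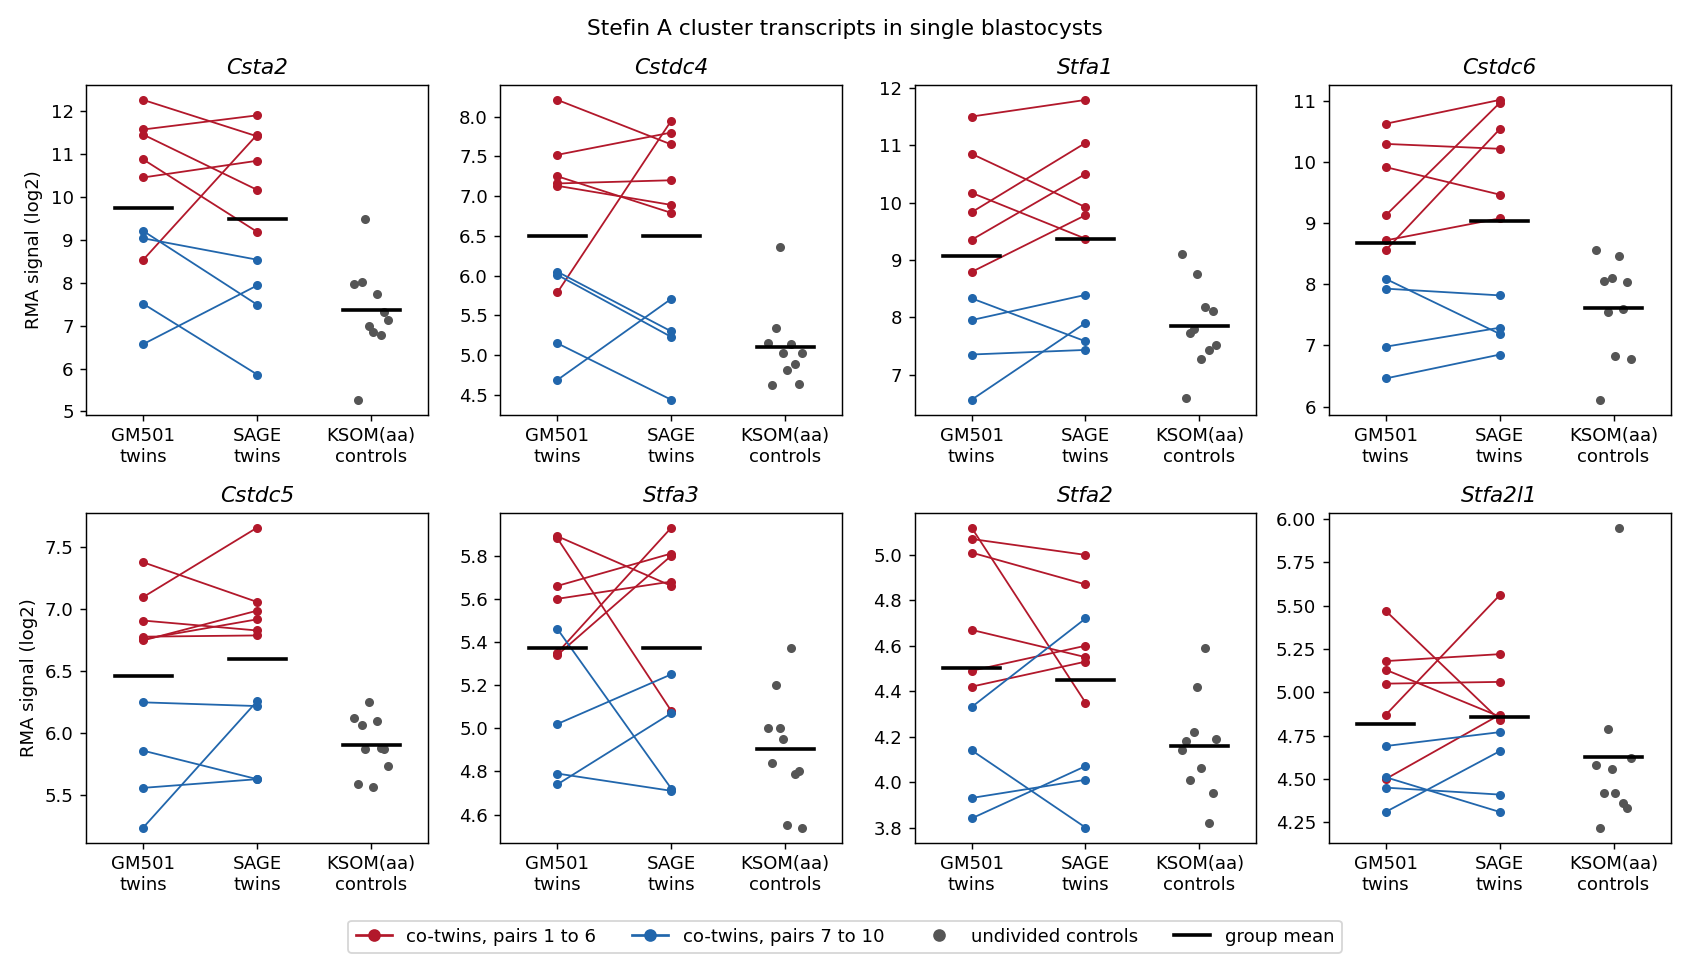
Log2 RMA signal (vertical axes) of the 8 genes in GM501 twins, SAGE twins and KSOM(aa) controls (10 blastocysts each, horizontal axes); each point is a blastocyst, lines join co-twins, red for pairs 1 to 6 and blue for pairs 7 to 10, and black bars are group means. For Csta2, 10 of the 12 red points lie above the highest control at 9.48, and for Cstdc5 all 12 lie above 6.25.

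The spread among twins led to the choice of Csta2, Stfa1 and Cstdc6 and is given as a description. Within twin groups, over both sets of pairs, the SD was 1.95 for Csta2, 1.54 for Stfa1 and 1.51 for Cstdc6. Of the 18090 genes kept, 66 had a larger SD within twin groups than Csta2, 259 than Stfa1 and 275 than Cstdc6. Cstdc4 had an SD of 1.18, exceeded by 759 genes, Cstdc5 0.68, exceeded by 4563, and Stfa3 0.44, exceeded by 10277. The SD among controls was 1.08 for Csta2, 0.73 for Stfa1, 0.81 for Cstdc6, 0.50 for Cstdc4, 0.23 for Cstdc5 and 0.26 for Stfa3. Over all genes kept, the median SD was 0.48 within twin groups and 0.25 among controls. The ratio of these SDs was 1.79 for Csta2, 2.38 for Cstdc4, 2.10 for Stfa1, 1.88 for Cstdc6, 2.96 for Cstdc5, 1.68 for Stfa3, 1.91 for Stfa2 and 0.76 for Stfa2l1, beside a median ratio over all genes of 1.84.

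Within a set of pairs the spread was smaller. Over the twins of both media, the SD of Csta2 was 1.11 in pairs 1 to 6 and 1.17 in pairs 7 to 10, against 1.08 in controls. That of Stfa1 was 0.91 and 0.60, against 0.73 in controls, and that of Cstdc6 0.87 and 0.57, against 0.81. Cstdc4 had 0.63 and 0.58, against 0.50 in controls, Cstdc5 0.28 and 0.38, against 0.23, and Stfa3 0.26 and 0.28, against 0.26. For Stfa2 the SDs were 0.27 and 0.30, against 0.22 in controls, and for Stfa2l1 0.29 and 0.18, against 0.49. The SDs over all twins of a medium thus include the distance between the sets.

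Co-twins were set against each other to ask whether the culture medium moved the genes. The comparison of GM501 with SAGE within the 10 pairs called 0 of 18090 genes (0%) by limma at an adjusted p under 0.05, with 695 at an unadjusted p under 0.05 where 904 are expected by chance. None of the 6 cluster genes that passed the filter was called, nor were Stfa2 and Stfa2l1 in the fit without it. GM501 minus SAGE was 0.27 ± 0.42 (SE, n = 10 pairs) for Csta2, with a 95% interval of -0.657 to 1.195. Stfa1 differed by -0.30 ± 0.25 (interval -0.849 to 0.245) and Cstdc6 by -0.37 ± 0.26 (interval -0.936 to 0.19). The difference was 0 ± 0.27 for Cstdc4, with an interval of -0.583 to 0.583, and -0.14 ± 0.13 for Cstdc5, with -0.419 to 0.139. Stfa3, Stfa2 and Stfa2l1 had intervals of -0.315 to 0.319, -0.176 to 0.28 and -0.291 to 0.211. The interval of Csta2 was the widest, and its upper end lies above 1. Leaving out 1 pair moved its difference between 0.108 (without pair 9) and 0.623 (without pair 2).

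In pairs 1 to 6 alone GM501 minus SAGE was 0.03 ± 0.56 for Csta2, and in pairs 7 to 10 alone 0.625 ± 0.52 (SE, 6 and 4 pairs). Stfa1 gave -0.32 ± 0.34 and -0.28 ± 0.34, and Cstdc6 -0.67 ± 0.35 and 0.0775 ± 0.26. Cstdc4 gave -0.20 ± 0.35 and 0.305 ± 0.34, and Cstdc5 -0.095 ± 0.14 and -0.21 ± 0.25. Csta2 was thus nearest to 0 in the set where it was highest, and Cstdc6 and Cstdc4 differed in sign between the sets. For Stfa3 the values were -0.04 ± 0.19 and 0.065 ± 0.23, for Stfa2 0.15 ± 0.13 and -0.09 ± 0.17, and for Stfa2l1 -0.035 ± 0.17 and -0.0475 ± 0.16. None of the 18090 genes kept was called between media in either set (0%).

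Single pairs differed much more than the means. For Csta2, GM501 minus SAGE ran from -2.92 in pair 2 to 1.72 in pair 9, and was above 0 in 6 of 10 pairs. For Stfa1 it ran from -1.34 in pair 8 to 0.93 in pair 6 and was above 0 in 3 pairs. Cstdc5 stayed within 0.56 of its co-twin in 9 pairs, and differed by -1.02 in pair 8. In pairs 3, 4 and 6 Csta2 was higher in GM501, by 0.85, 1.69 and 1.29, while Stfa1 differed by -0.99, -1.21 and 0.93. The direction of a pair for Csta2 thus did not fix its direction for Stfa1.

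The question whether co-twins resembled each other was put to an F test in limma with 1 term per pair, which called 4779 of 18090 genes (26.4%). Of the 3 genes tested on the filtered table, it called Cstdc4 (F = 6.56, adjusted p = 0.0146) and Cstdc5 (F = 10.27, adjusted p = 0.0042), and not Stfa3 (adjusted p = 0.137). In the fit without the filter, which called 19% of 30142 genes, Stfa2 was called (adjusted p = 0.0288, lost without pair 2, 7, 9 or 10, where it reached 0.0685) and Stfa2l1 was not (adjusted p = 0.0947). Cstdc4 and Cstdc5 kept their calls in 10 of 10 fits that left out 1 pair. Once the median of every array had been taken off its signals, Stfa2 was no longer called by this test (F = 1.94, adjusted p = 0.343). Cstdc4 (adjusted p = 0.0403) and Cstdc5 (adjusted p = 0.00627) were still called then. Csta2, Stfa1 and Cstdc6 were not tested, having been picked by their spread among the same twins. Over the 20 twins Cstdc4 moved with Csta2 (r = 0.98), and Cstdc5 with Stfa1 (r = 0.90) and Cstdc6 (r = 0.85). The p-values of Cstdc4 and Cstdc5 are thus not independent of that choice.

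Within either set of pairs alone these calls were lost. Within pairs 1 to 6 limma called 0.243% of genes by embryo, with adjusted p = 0.753 for Cstdc4 and 0.557 for Cstdc5. Within pairs 7 to 10 it called 0.0663%, with adjusted p = 0.697 and 0.724 for these genes. With each medium centred on its mean, the median difference between co-twins was 1.20 for Csta2, 0.88 for Stfa1 and 0.47 for Cstdc6, against 2.08, 1.66 and 1.70 between unrelated twins of different media. Within pairs 1 to 6 the medians were 0.84 for co-twins and 0.96 for unrelated twins for Csta2, 0.88 and 0.76 for Stfa1, and 0.64 and 0.75 for Cstdc6. For Cstdc5 they were 0.18 and 0.16, for Cstdc4 0.37 and 0.59, and for Stfa2 0.12 and 0.37. Within pairs 7 to 10 they were 1.42 for co-twins and 1.10 for unrelated twins for Csta2, 0.63 and 0.70 for Stfa1, and 0.27 and 0.82 for Cstdc6. Cstdc5 had 0.27 and 0.31 there, Cstdc4 0.76 and 0.55, and Stfa2 0.29 and 0.21. Whether sisters or unrelated twins lay closer thus differed by gene and by set, and these distances carry no test. For Stfa3 the medians were 0.34 and 0.24 in pairs 1 to 6 and 0.28 and 0.29 in pairs 7 to 10, and for Stfa2l1 0.32 and 0.31, and 0.16 and 0.18.

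Twins were compared with controls to ask how bisection and the 2 media together set them apart from undivided embryos. Both comparisons share the 10 controls. Csta2 had the largest difference of the 8 genes, 2.40 ± 0.64 in GM501 twins and 2.13 ± 0.67 in SAGE twins (SE, n = 10 against 10). Stfa1 differed by 1.22 ± 0.51 in GM501 twins and 1.52 ± 0.49 in SAGE twins, and Cstdc6 by 1.06 ± 0.47 and 1.44 ± 0.54. No test is given for these 3. The median difference over all genes kept was 0.114 in GM501 twins and 0.112 in SAGE twins.

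Cstdc4 rose in both twin groups by 1.39, with an SE of 0.36 and limma adjusted p = 0.0225 in GM501 twins, and an SE of 0.39 and adjusted p = 0.0274 in SAGE twins. In GM501 twins limma called 2493 of 18090 genes (13.8%, with 6.81% higher and 6.97% lower) and, of the 3 cluster genes tested, Cstdc4 and Stfa3 (0.47 ± 0.15, adjusted p = 0.0473). In SAGE twins it called 2918 (16.1%, with 7.5% higher and 8.63% lower) and, of the same 3, Cstdc4 and Cstdc5 (0.69 ± 0.21, adjusted p = 0.0338). Cstdc5 differed by 0.55 ± 0.22 in GM501 twins (adjusted p = 0.0863) and Stfa3 by 0.47 ± 0.17 in SAGE twins (adjusted p = 0.0555). The fit without the filter called neither Stfa2 (0.34 ± 0.16, adjusted p = 0.0951 in GM501 twins, 0.29 ± 0.14, adjusted p = 0.101 in SAGE twins) nor Stfa2l1 (adjusted p = 0.412 in GM501 twins and 0.311 in SAGE twins), out of 19.1% and 26.2% of 30142 genes called. With each array centred on its median, Cstdc4 stayed called (1.16, adjusted p = 0.0287 in GM501 twins, 1.15, adjusted p = 0.0362 in SAGE twins). Stfa3 (0.23, adjusted p = 0.221 in GM501 twins) and Cstdc5 (0.45, adjusted p = 0.066 in SAGE twins) were then not called. Stfa2 differed by 0.105 in GM501 twins and 0.046 in SAGE twins in these fits, and Stfa2l1 by -0.048 and -0.015. Over the 20 twins, centred within their medium, Cstdc4 moved with Csta2 (r = 0.98) and Cstdc5 with Stfa1 (r = 0.90). Csta2 and Stfa1 were picked by their spread among the same twins. The p-values of Cstdc4 and Cstdc5 against controls, with all arrays or with 1 left out, are thus not independent of that choice.

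Leaving out 1 array at a time, Cstdc4 kept its call in GM501 twins in 20 of 20 fits (limma adjusted p from 0.00496 to 0.043). In SAGE twins it lost it without SAGE twin 1, 2, 3 or 4, where the adjusted p reached 0.0534. Cstdc5 lost its call in SAGE twins in 9 of 20 fits, without SAGE twin 1, 2, 3, 4 or 6 or control 2, 6, 9 or 10 (adjusted p up to 0.0651). In GM501 twins it was called without twin 8, 9 or 10, with the adjusted p down to 0.0196. Stfa3 lost its call in GM501 twins in 15 of 20 fits, without any of GM501 twins 1 to 6 and any control but control 7, with the adjusted p up to 0.09.

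The differences from controls were large in pairs 1 to 6. In these pairs Csta2 was 3.51 ± 0.55 higher in GM501 twins and 3.48 ± 0.50 higher in SAGE twins than in controls (SE, n = 6 against 10). Stfa1 was higher by 2.24 ± 0.40 and 2.55 ± 0.38, and Cstdc6 by 1.93 ± 0.39 and 2.61 ± 0.38. By limma, Cstdc4 rose by 2.07 ± 0.30 (adjusted p = 2.74e-05) in GM501 twins and 2.28 ± 0.24 (adjusted p = 1.51e-06) in SAGE twins. Cstdc5 rose by 1.04 ± 0.12 (adjusted p = 4.79e-06) and 1.14 ± 0.14 (adjusted p = 5.34e-06), and Stfa3 by 0.72 ± 0.13 (adjusted p = 0.000275) and 0.76 ± 0.14 (adjusted p = 0.000299). In the fit without the filter Stfa2 differed by 0.64 ± 0.13 (adjusted p = 0.000523) and 0.49 ± 0.12 (adjusted p = 0.00179) and was called. Stfa2l1 differed by 0.41 ± 0.21 (adjusted p = 0.0976) and 0.44 ± 0.21 (adjusted p = 0.0691) and was not. In these pairs limma called 59.4% of all genes in GM501 twins and 58.8% in SAGE twins, so a call there is common. The set itself comes from the arrays' own medians, which lay above the highest control in 12 of its 12 arrays. The adjusted p-values in pairs 1 to 6 thus describe a set chosen from the same data and cannot serve as tests of these genes.

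In pairs 7 to 10 none of Cstdc4, Cstdc5 and Stfa3 was called, where limma called 1.32% of genes in GM501 twins and 0.813% in SAGE twins (n = 4 against 10). Csta2 differed from controls by 0.73 ± 0.61 in GM501 twins and 0.10 ± 0.59 in SAGE twins. Stfa1 differed by -0.30 ± 0.40 and -0.02 ± 0.36, and Cstdc6 by -0.24 ± 0.43 and -0.32 ± 0.39. Cstdc4 gave 0.37 ± 0.30 (limma adjusted p = 0.61) and 0.07 ± 0.28 (adjusted p = 0.936), and Cstdc5 -0.18 ± 0.17 (adjusted p = 0.676) and 0.03 ± 0.16 (adjusted p = 0.954). Stfa3 gave 0.10 ± 0.16 (adjusted p = 0.83) and 0.03 ± 0.16 (adjusted p = 0.944). The difference between the sets themselves was not tested, since the sets come from the arrays' own medians.

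**Figure D2:**
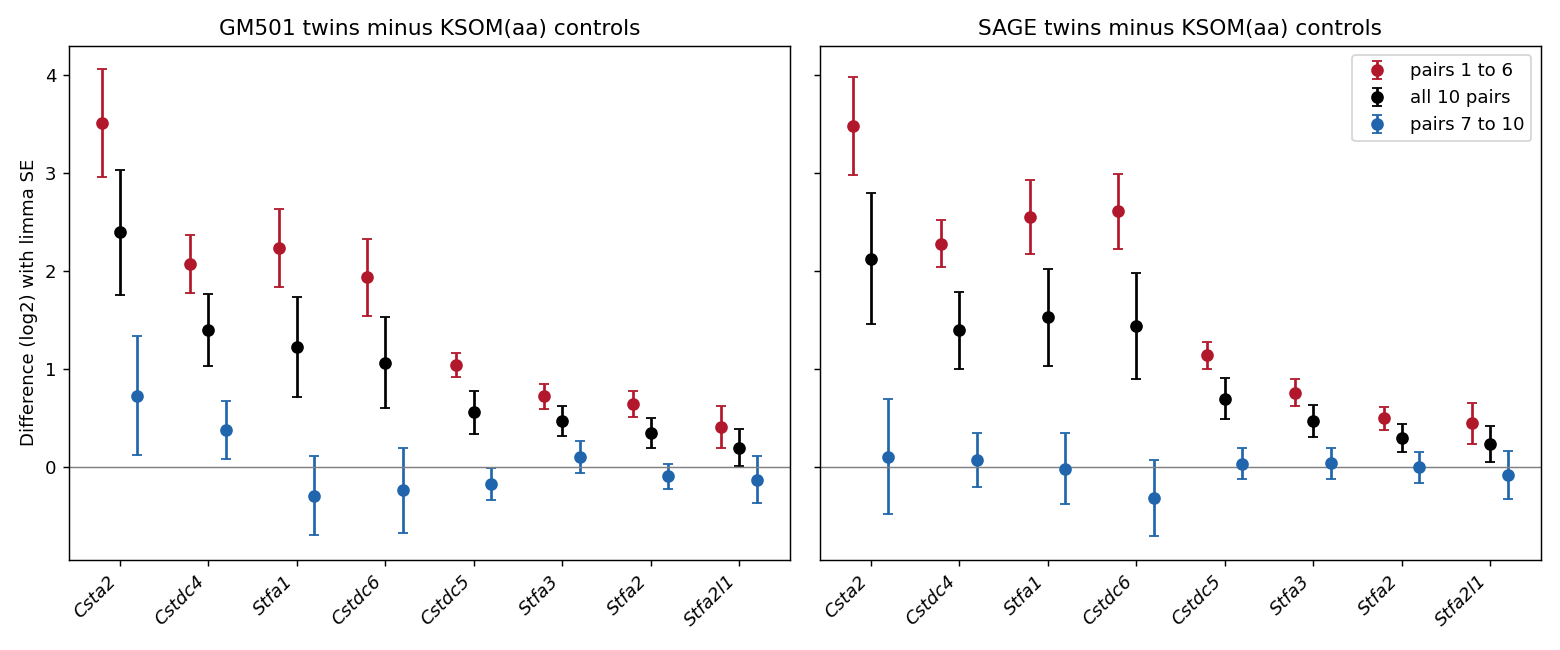
Difference of twins from KSOM(aa) controls (vertical axes, log2) with limma's SE for each of the 8 genes (horizontal axes), GM501 twins left and SAGE twins right, in pairs 1 to 6 (red), all 10 pairs (black) and pairs 7 to 10 (blue). Csta2 lies at 3.51 and 3.48 in pairs 1 to 6, and at 0.73 and 0.10 in pairs 7 to 10.

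The 8 genes did not vary as 1 unit. For twins, each gene was first centred on the mean of its medium in that set of pairs. Correlations were taken within each set and are descriptions over few arrays. This leaves out the step in array medians between the sets, but medians still ran from 4.81 to 5.28 in pairs 1 to 6 and from 4.57 to 5.12 in pairs 7 to 10. Csta2 and Cstdc4 had Pearson's r of 0.94 in pairs 1 to 6 (12 arrays of 6 embryos), 0.92 in pairs 7 to 10 (8 arrays of 4 embryos) and 0.87 in controls (10 arrays), with Spearman's rho of 0.94, 0.81 and 0.86. Stfa1 and Cstdc6 had r of 0.91, 0.89 and 0.87 in these sets, with rho of 0.92, 0.74 and 0.88. Cstdc5 went with Stfa1 at r = 0.51, 0.82 and 0.85 and with Cstdc6 at 0.24, 0.64 and 0.89.

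Between these 2 blocks the sign differed by set. Csta2 and Stfa1 had r = -0.51 in pairs 1 to 6 and -0.33 in pairs 7 to 10, against 0.51 in controls. For Csta2 and Cstdc6 r was -0.50, -0.59 and 0.59, and for Cstdc4 and Stfa1 it was -0.49, -0.34 and 0.21. Over the 28 pairs of genes, r had a median of 0.07 in pairs 1 to 6 and 0.04 in pairs 7 to 10, against 0.42 in controls. The difference in sign between twins and controls was not tested. Single blastocysts weigh on it. KSOM(aa) control 2 was the lowest control for Csta2 (5.27), Stfa1 (6.59) and Cstdc6 (6.11). In pairs 1 to 6 the GM501 twin of pair 2 was the lowest for Csta2 (8.54) and among the highest for Stfa1 (11.50). Correlations without these blastocysts were not taken. Promoters were 47.3% identical for Csta2 and Cstdc4, 74.5% for Cstdc4 and Stfa1, 83.8% for Stfa1 and Cstdc5 and 90.5% for Stfa2 and Stfa2l1. How promoter likeness goes with these correlations was not tested.

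**Figure D3:**
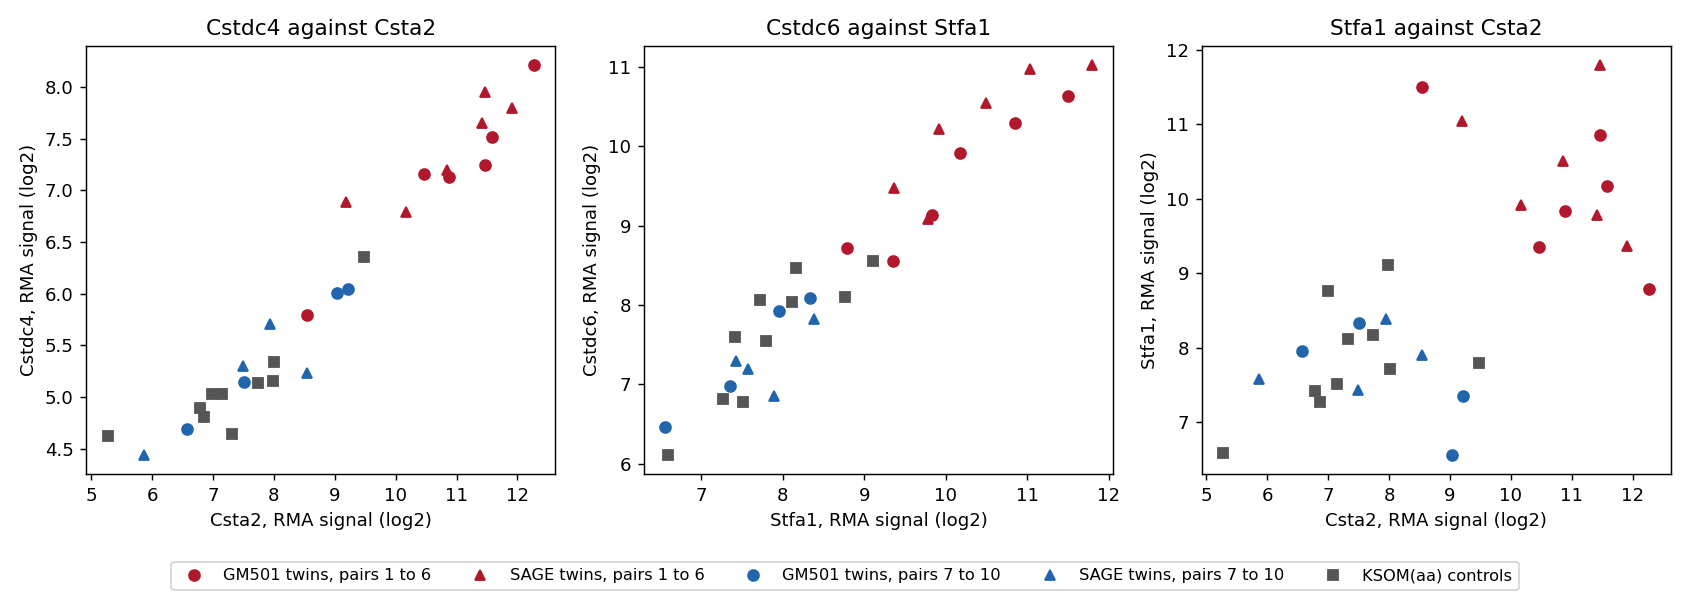
Log2 RMA signals of 2 genes against each other in single blastocysts: Cstdc4 (vertical) against Csta2, Cstdc6 (vertical) against Stfa1 and Stfa1 (vertical) against Csta2, with circles for GM501 twins, triangles for SAGE twins and squares for controls. The first 2 panels form a line in each set, with r = 0.94 and 0.91 in pairs 1 to 6 (red), while Stfa1 and Csta2 have r = -0.51 there. These r were taken after centring within each medium, whereas the points are uncentred signals.

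Array medians went with some genes and not with others within a set. Unlike r between genes, r with the array median was taken on signals not centred within a medium. Csta2, Cstdc4, Stfa1 and Cstdc6 had r between -0.18 and 0.14 with the array median in pairs 1 to 6. In pairs 7 to 10 they had 0.36, 0.05, 0.12 and -0.37, in the same order. Cstdc5 had 0.56 in pairs 1 to 6 and 0.47 in pairs 7 to 10, Stfa3 -0.09 and 0.53, Stfa2 0.64 and 0.89, and Stfa2l1 0.61 and 0.69. Of the 8 genes, Stfa2 went most with the array median in both sets. Stfa2 and Stfa2l1 went together at r = 0.55 in pairs 1 to 6 and 0.81 in pairs 7 to 10, against 0.76 in controls.

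**Figure D4:**
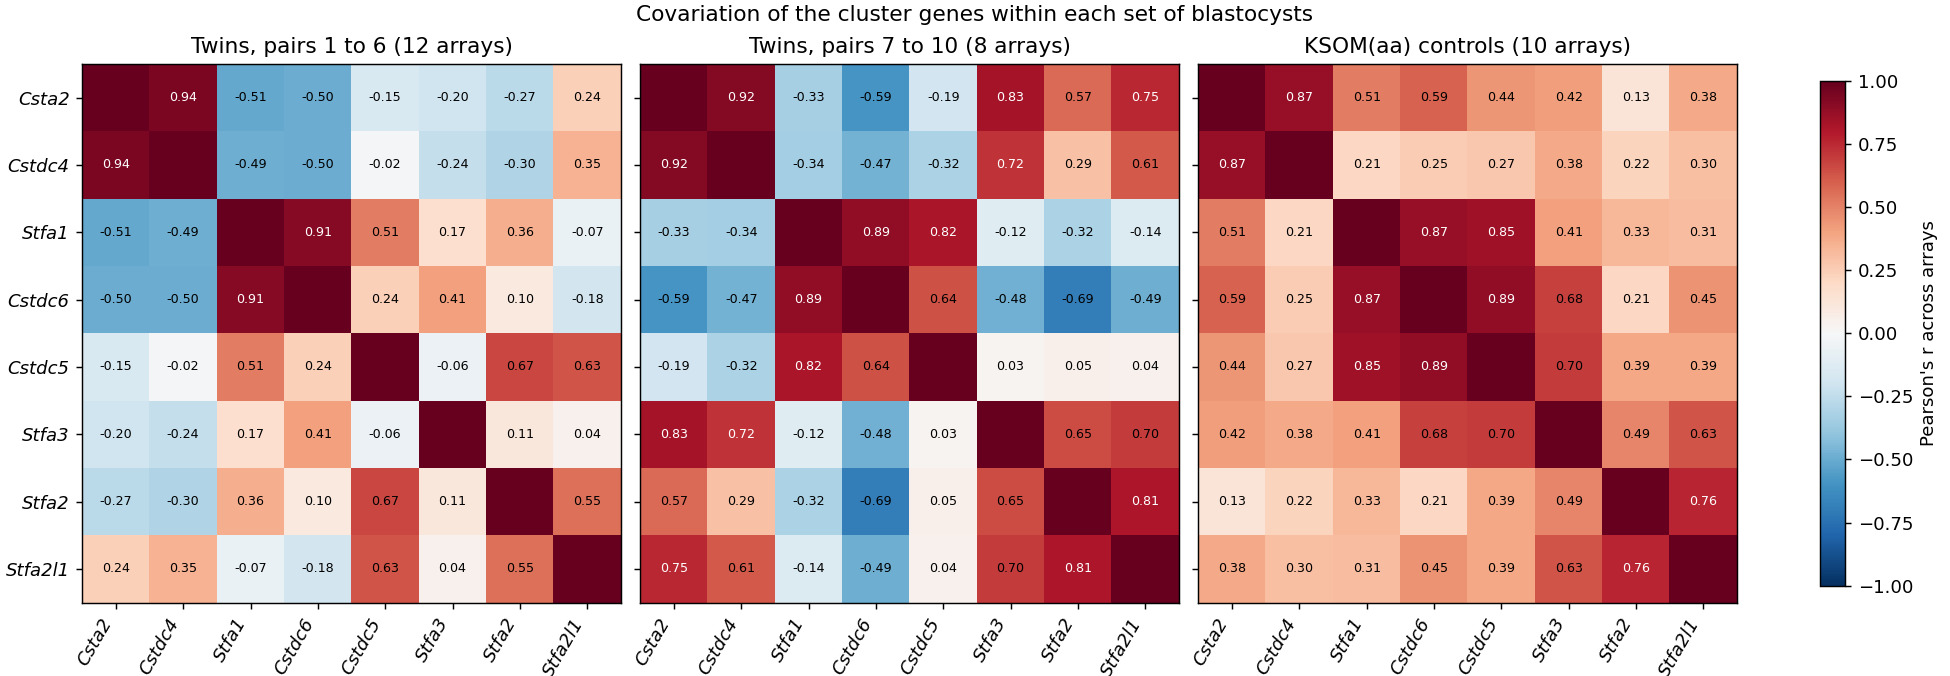
Pearson's r across arrays between the 8 genes (rows and columns in the same order) in twins of pairs 1 to 6, twins of pairs 7 to 10 and KSOM(aa) controls, from blue (-1) to red (1). Twins were centred within each medium. Csta2 with Cstdc4 (0.94, 0.92 and 0.87) and Stfa1 with Cstdc6 (0.91, 0.89 and 0.87) are red in all 3 panels, and the squares between these blocks are blue in both twin panels, with r = -0.51 and -0.33 for Csta2 and Stfa1.

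The genes most like Csta2 outside the cluster were taken by Pearson's r over the 20 twins with each gene centred within its medium, among 11266 coding genes. They were Clip4 (r = 0.88), Yipf4, Cks2, Sem1 and Cypt2 (r = 0.85 each), against 0.98 for Cstdc4. Cks2 binds cyclin-dependent kinases, and Sem1 is a small subunit of the proteasome. These values span both sets of twins. Within pairs 1 to 6 r was 0.52 for Clip4, 0.47 for Yipf4, 0.47 for Cks2, 0.31 for Sem1 and 0.54 for Cypt2, against 0.94 for Cstdc4. Within pairs 7 to 10 it was 0.71, 0.90, 0.45, 0.85 and 0.38 for these genes in the same order, against 0.92 for Cstdc4. In controls it was between -0.21 and 0.37 for these 5 genes. For Stfa1, chosen after values were seen, Cox20, a factor for the assembly of cytochrome c oxidase, came first at 0.94, with 0.75 in pairs 1 to 6 and 0.85 in pairs 7 to 10, against 0.46 in controls.

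Stefin A blocks cathepsins, and the other cystatins and the cathepsins were looked up as lists chosen with earlier results of these data known. Of 7 other cystatins that passed the filter, 1 rose in GM501 twins and 0 in SAGE twins, beside 6.81% and 7.5% of all genes called higher, with a median difference of 0.24 in GM501 twins and 0.29 in SAGE twins beside 0.11 over all genes. It was Cst7, cystatin F of immune cells, at 6.56 ± 1.54 in GM501 twins and 5.61 ± 0.69 in SAGE twins, against 5.03 ± 0.51 in controls (SD, n = 10 each), with limma adjusted p = 0.0408 in GM501 twins and 0.107 in SAGE twins. Cstb, stefin B, was at 17.14 in GM501 twins and 17.03 in SAGE twins, against 16.90 in controls (adjusted p = 0.216 for GM501 and 0.493 for SAGE). Cst3, the secreted cystatin C, was at 13.52 in GM501 twins and 13.48 in SAGE twins, against 13.60 in controls, and was not called. By embryo of origin 2 of the 7 were called, Cst3 (adjusted p = 0.0269) and Cstl1 (adjusted p = 0.0243), beside 26.4% of all genes.

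Of 6 lysosomal cysteine proteases that passed, 1 fell in GM501 twins and 2 in SAGE twins, beside 6.97% and 8.63% of all genes called lower, with medians of -0.46 and -0.55 beside 0.11 over all genes. Lgmn, legumain, which cuts after asparagine, was at 11.30 ± 0.66 in GM501 twins and 11.57 ± 0.44 in SAGE twins, against 12.63 ± 0.38 in controls (SD, n = 10 each). It fell in both (limma adjusted p = 0.00301 in GM501 twins and 0.0045 in SAGE twins). Ctsb, cathepsin B, differed by -0.47 ± 0.36 in GM501 twins (adjusted p = 0.332) and fell by 0.68 ± 0.20 in SAGE twins (adjusted p = 0.0313). Ctsl, cathepsin L, was at 12.12 in GM501 twins and 11.80 in SAGE twins, against 12.36 in controls and was not called. Of 9 placental cathepsins 4 passed and 0 were called in either twin group. Ctsll3 was at 7.06 in GM501 twins and 7.89 in SAGE twins, against 8.13 in controls (adjusted p = 0.0584 for GM501 and 0.707 for SAGE), and Cts3 at 5.49, 5.56 and 5.26 (adjusted p = 0.173 and 0.12). By embryo limma called Ctsc, cathepsin C (adjusted p = 0.00754), Ctsb (0.0292) and Ctsz, cathepsin Z (0.0293), of the 6, and Cts3 (0.0385) of the 4. The same test called 26.4% of all genes.

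Markers of the cells in which stefin A is best known mostly missed the filter on low means. Of 17 cornified envelope genes on the array 3 passed the filter and 0 were called. Flg, filaggrin, was at 5.27 in GM501 twins and 5.28 in SAGE twins, against 5.15 in controls, and Ppl, periplakin, at 5.75, 5.68 and 5.93. Of 6 epidermal markers 4 passed and 0 were called, among them the keratin Krt10 at 5.30 in GM501 twins and 5.29 in SAGE twins, against 5.03 in controls. Of 14 neutrophil and myeloid genes 4 passed, and the mean of the 14 ran from 4.77 to 5.22 in GM501 twins and 4.80 to 5.21 in SAGE twins, against 4.80 to 5.03 in controls. S100a8, a defining neutrophil protein, was at 3.80 in GM501 twins and 3.99 in SAGE twins, against 3.94 in controls, and the leukocyte marker Ptprc at 4.49, 4.46 and 4.21, all below the lowest mean kept. S100a9 was at 5.65 in GM501 twins and 5.84 in SAGE twins, against 6.02 in controls and was not called.

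Of the 4 myeloid genes that passed, 1 rose and 1 fell in GM501 twins, and 2 rose and 1 fell in SAGE twins, where 13.8% and 16.1% of all genes were called in either direction. Cd177 rose by 0.43 ± 0.11 (limma adjusted p = 0.0207) in GM501 twins and 0.47 ± 0.11 (adjusted p = 0.0146) in SAGE twins, and Camp by 0.30 ± 0.10 (adjusted p = 0.045) in SAGE twins. In controls Cd177 (4.77) and Camp (4.65) lay below the lowest mean kept, 4.803. Both thus passed the filter only through the twins, where they were higher, and Camp averaged 4.82 in GM501 twins and 4.95 in SAGE twins. Csf3r, the receptor of granulocyte colony-stimulating factor, fell to 10.74 in GM501 twins and 10.51 in SAGE twins, against 12.09 in controls (adjusted p = 0.0107 and 0.0142), and was called by embryo (adjusted p = 0.00261). Among oviduct, cumulus and red cell markers 1 gene each passed and 0 were called. These were Ovgp1, the oviduct glycoprotein, at 5.08 in GM501 twins and 5.19 in SAGE twins, against 4.97 in controls, Inha, the inhibin alpha subunit, at 5.11, 5.17 and 4.97, and Alas2, an enzyme of heme synthesis in red cells, at 5.11, 5.14 and 4.92. Pax8 of the oviduct (4.39, 4.43 and 4.18) and Fshr of the granulosa (4.41, 4.37 and 4.15) lay below the filter.

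Lineage markers of the blastocyst moved beside the cluster. All 7 trophectoderm genes fell in both twin groups, beside 6.97% and 8.63% of all genes, with medians of -0.72 in GM501 twins and -0.76 in SAGE twins. The transcription factors Gata2, Tfap2c and Tead4 fell by 0.70 ± 0.11 (limma adjusted p = 0.00139), 0.72 ± 0.14 (0.00472) and 0.82 ± 0.21 (0.0206) in GM501 twins. In SAGE twins they fell by 0.61 ± 0.14 (adjusted p = 0.013), 0.76 ± 0.18 (0.0137) and 0.94 ± 0.18 (0.00774). Krt18, the keratin that pairs with Krt8, was at 17.66 in GM501 twins and 17.56 in SAGE twins, against 18.05 in controls (adjusted p = 0.0203 and 0.0313). By embryo limma called Krt8 (adjusted p = 0.0044), Tead4 (0.0133) and Tfap2c (0.0443) of the 7, beside 26.4% of all genes. Cdx2, a trophectoderm factor, fell by 0.47 ± 0.15 in GM501 twins (limma adjusted p = 0.044) and by 0.71 ± 0.14 in SAGE twins (adjusted p = 0.00829). Of 5 epiblast genes 0 were called in GM501 twins and 3 fell in SAGE twins: Pou5f1 (-1.14 ± 0.25, adjusted p = 0.011), Nanog (-1.54 ± 0.35, adjusted p = 0.0122) and Sox2 (-1.03 ± 0.22, adjusted p = 0.00956). In GM501 twins Sox2 differed by -0.56 ± 0.31 (adjusted p = 0.187), Pou5f1 differed by -0.69 ± 0.29 (adjusted p = 0.0998; called by embryo, adjusted p = 0.0338) and Nanog by -1.04 ± 0.51 (adjusted p = 0.138). Of 3 primitive endoderm genes that passed, 1 fell in GM501 twins and 2 in SAGE twins. Cubn, the endocytic receptor cubilin, fell by 2.91 ± 0.68 in GM501 twins (adjusted p = 0.015) and by 2.85 ± 0.66 in SAGE twins (adjusted p = 0.0129). Gata4, an endoderm factor, differed by -0.41 ± 0.16 in GM501 twins (adjusted p = 0.0786) and fell by 0.48 ± 0.15 in SAGE twins (adjusted p = 0.0352). Gata6 was not called (-0.10 ± 0.21, adjusted p = 0.742 and -0.42 ± 0.20, adjusted p = 0.126). The mean of the 7 trophectoderm genes ran from 10.54 to 11.36 in pairs 1 to 6 and from 11.50 to 12.19 in pairs 7 to 10, against 11.94 to 12.39 in controls. Its part in the values of the stefin A genes was not tested.

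Of 34 genes on the array within 500 kb of the cluster 21 passed the filter, and 1 rose and 0 fell in each twin group, beside 6.81% of all genes called higher in GM501 twins and 7.5% in SAGE twins. For the rise this count is near the share of all genes. This gene was Fam162a, a mitochondrial protein, at 10.05 ± 1.10 in GM501 twins and 10.04 ± 1.11 in SAGE twins, against 8.93 ± 0.26 in controls (SD, n = 10 each; limma adjusted p = 0.0356 and 0.0346). The median difference of the 21 was 0.09 in GM501 twins and -0.01 in SAGE twins, beside 0.11 over all genes. Gm10913 (14.73 in GM501 twins and 14.49 in SAGE twins, against 14.61 in controls) and Ccdc58 (13.46, 13.62 and 13.01) had the highest means and were not called. Cstdc3, a cystatin gene inside the cluster whose promoter holds the same box, was at 5.02 in GM501 twins and 4.94 in SAGE twins, against 4.51 in controls (adjusted p = 0.0509 and 0.106). Its control mean lay below the lowest mean kept, 4.803. Cstdc3 thus passed the filter only through the twins, where it was higher, which limits these p-values. The embryo test called 7 of the 21 neighbours, beside 26.4% of all genes, with the smallest adjusted p for Fam162a (0.00063), Slc15a2 (0.00966), Ccdc58 (0.0113) and Kpna1 (0.0142).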

How the data were processed

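The files held log2 signals of 65956 transcript clusters on 30 arrays. The authors deposited these log2 values after RMA in Affymetrix Expression Console on mm10, per the submitters' processing notes (versions: not given in the sources used here). The method corrects for background, scales the arrays to each other and combines the probes of a cluster, so values are relative within a cluster. No label states the log base, which was taken as 2 from RMA's own scale. RNA was amplified and labelled with the GeneChip WT Pico kit, per the labels' protocols. Precision is limited by the number of arrays.

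Clusters were named through the platform's annotation, with 827 symbols updated through the gene ID in RefSeq's table of GRCm38.p6. Of 32750 clusters with a listed gene, 30604 had 1 symbol and 2146 had several and were not used. For each gene the cluster with the highest mean was taken (30142 genes), of which the upper 60% by their mean on the 30 arrays entered the fits (18090 genes). With R 4.3.3, limma 3.58.1 (lmFit, then eBayes, two-sided) compared the media within pairs, each twin group with controls, and the embryos of origin by an F test. Adjustment was by Benjamini-Hochberg over those genes, and an adjusted p under 0.05 made a call. SEs are limma's. The script was tested on simulated data. Promoters were aligned globally, and their motifs were chosen after the sequences had been read, as the longest stretches shared by all promoters but that of Csta2.

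Per the labels, co-twins share the number of their 2-cell embryo. With each gene centred within its medium, co-twins correlated across genes at r = 0.163 to 0.696, over 0.1 in 10 of 10 pairs, so the pair was a block in the comparison of media. Controls carry no pair. The number of matings and of culture days behind these embryos is not stated, so p-values measure the spread between these samples only.

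The 8 genes, the gene lists and the sets of pairs were chosen with earlier results of these data known. All 8 genes are named. From the lists, genes called in a comparison (up to 4 a list by p) and the 2 with the highest mean are named, with Cdx2, Krt8, Pou5f1, Nanog, Gata6, S100a8, S100a9 and Ptprc, and the 5 genes most like Csta2. Beyond this rule, Cstdc3 and Cox20 were named after their values were seen. Alternatives were no filter, arrays centred on their medians, eBayes with trend and robust, the mean of all clusters of a gene, each set of pairs alone, no pair block, pair means against controls, and leaving out each array or pair. Leaving out each control was added after seeing the data. Csta1 stood on a cluster with several names and is not analysed here.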

Additional observations from a re-analysis of the deposited data

Results flagged for a closer look

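In 24 combinations of gene and group, 2 blastocysts lay far from the other 9 of their group by Dixon's ratio of the gap to the range, a test that chance passes in about 1 of 20 groups. Cstdc4 was at 6.36 in KSOM(aa) control 4 (ratio 0.586), against 4.62 to 5.34 in the other controls. Csta2 was also highest there among controls, at 9.48. Stfa2l1 was at 5.95 in KSOM(aa) control 7 (ratio 0.671), against 4.22 to 4.79 in the others. The same control was the highest for Stfa3, at 5.37, and for Stfa2, at 4.59.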

How the results depend on the processing

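The 4 counts of cluster genes called were 0 between media, 2 in each comparison with controls and 2 by embryo of origin. They were 0 between media under every alternative, including the fit with no replicate block, where GM501 minus SAGE for Csta2 was 0.269 with an SE of 0.81, against 0.42 with the pair as block. The block moved no call of any cluster gene. With controls, the count fell to 1 in both twin groups with arrays centred on their medians and to 0 in pairs 7 to 10. It was 3 (Cstdc4, Cstdc5 and Stfa3) in both groups in pairs 1 to 6, and in SAGE twins also without the filter (adjusted p = 0.0432 for Stfa3) and with trend and robust (0.0465). A single fit of 10 pair means, each of a GM501 twin and its SAGE sister, against controls called the same 3. Leaving out 1 array gave 1 to 3 for GM501 twins and 0 to 3 for SAGE twins. By embryo it was 3 without the filter, 0 in pairs 1 to 6 and in pairs 7 to 10, the fits then holding fewer pairs, and 2 without any one pair.

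Over all genes, 2493 were called in GM501 twins and 2918 in SAGE twins. Without the filter these were 5757 and 7911, in pairs 1 to 6 10742 and 10642, in pairs 7 to 10 239 and 147, and with 10 pair means against controls 4628. Leaving out 1 array gave 1128 to 5271 and 1312 to 6307. By embryo 4779 were called, 44 in pairs 1 to 6, 12 in pairs 7 to 10, and 3188 to 6349 without 1 pair. The cause of these shifts was not tested.

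Signs turned as follows. In pairs 7 to 10, GM501 minus controls was -0.30 for Stfa1, -0.24 for Cstdc6, -0.18 for Cstdc5, -0.10 for Stfa2 and -0.135 for Stfa2l1. SAGE minus controls was -0.021 for Stfa1, -0.32 for Cstdc6, -0.008 for Stfa2 and -0.0875 for Stfa2l1 there. With centred arrays, Stfa2l1 was at -0.048 in GM501 twins and -0.015 in SAGE twins. GM501 minus SAGE was -0.09 for Stfa2 and 0.0775 for Cstdc6 in pairs 7 to 10, and -0.04 for Stfa3 in pairs 1 to 6. Without 1 pair it ran from -0.0867 to 0.0667 for Stfa3, from -0.1144 to 0.0322 for Stfa2l1 and from -0.0278 to 0.101 for Stfa2. Stfa2 was called in both twin groups in pairs 1 to 6, in GM501 twins without twin 7 or 10 and in SAGE twins without twin 9. With 1 array left out, Stfa3 was called in SAGE twins without twin 7, 9 or 10 or control 7. Without control 7, Stfa2l1 differed by 0.338 in GM501 twins and 0.378 in SAGE twins. Signals near the array medians, those of Stfa2 and Stfa2l1 above all, limit what can be told of these genes.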
